A study of Homo sapiens with 12 samples.

Results

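The p53 targets described here are 9 genes that the tumour suppressor p53 is known to switch on: MDM2, CDKN1A, ZMAT3, TP53INP1, PPM1D, SESN1, GDF15, RRM2B and FDXR. They were chosen by symbol, and every probe set that the probe table names with exactly one of these symbols was taken. This gave 26 probe sets of 54613 without controls, for 8 of the 9 genes (of 19775 genes with a probe set). MDM2 had 10 probe sets, ZMAT3 had 5, TP53INP1 and GDF15 had 3 each, PPM1D had 2, and CDKN1A, SESN1 and RRM2B had 1 each. FDXR expression was not analysed here. Of the 26 probe sets, 19 had a mean over the 12 arrays above 5.39, the 40th percentile of all probe sets, and were tested; the other 7 were dimmer and are given by their values only.

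The cells were A549, a human lung adenocarcinoma line. They were sorted with the DNA dye Hoechst, applied at 5 µg/ml for 90 min, into the side population (SP), which exports the dye and stays dim, and the remaining stained cells (non-SP). The 4 groups were anti-EpCAM SP, anti-EpCAM non-SP, untreated SP and untreated non-SP, with 3 biological replicates each and 1 Affymetrix expression array per replicate. Before the dye, the treated cultures were kept for 48 h with 100 µg/ml of a monoclonal antibody to EpCAM; the labels call it anti-mouse without saying whether mouse is its host or its target, and they name no control antibody for the untreated cultures. All groups come from the same cell line and carry the dye exposure; cells without the dye were not analysed here, and whether the dye acts on p53 was not tested.

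Under stress, p53 is stabilised, binds response elements near its target genes and raises their transcription. Some targets close a negative feedback loop on p53 (MDM2, PPM1D), and others arrest the cell cycle, restrain growth, supply nucleotides for repair or promote cell death. In unstressed cells the same genes keep a basal level that p53 helps to set.

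Values are on the log2 scale after RMA, as deposited, so a difference of 1 is a 2-fold difference in signal. Markers of the labelled line were present: 9 of 9 A549 epithelial markers were kept, with a mean log2 value of 12.88 to 13.49 over the SP arrays and 12.83 to 13.46 over the non-SP arrays. Among other-cell markers with a probe set, 2 of 4 leukocyte, 1 of 4 endothelial and 3 of 5 fibroblast genes passed the same filter. Over all arrays, the leukocyte markers CD3E and CD14 ranged from 6.23 to 7.30 and from 6.32 to 7.42. The endothelial marker PECAM1 ranged from 6.31 to 7.16. The fibroblast markers DCN, COL1A2 and THY1 ranged from 5.77 to 6.63, 5.26 to 6.40 and 5.94 to 6.75. PTPRC, LYZ, VWF, CDH5, KDR, LUM and PDGFRA did not pass the filter and were not tested between fractions. No kept marker of any list passed that test. Within a treatment, the SP array and the non-SP array with equal replicate number form a pair, 6 in all. These pairs deviated together from the group means (r of 0.521 to 0.864 across probe sets), and their sorted values differed by a mean of at most 0.0215, against at least 0.0458 for other arrays. Arrays of equal number across treatments gave r of -0.36 to 0.66, so r alone does not single out the pairs. The labels do not say that a pair comes from the same sort. The choice of members names these pairs, so the difference SP minus non-SP was tested with limma over the 6 pairs. Benjamini-Hochberg adjustment ran over all 32768 kept probe sets, with a call at an adjusted p under 0.05. In bulk RNA, fewer cells that express a gene and less of its RNA per cell cannot be told apart.

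In the main fit, ZMAT3 and TP53INP1 were lower in SP cells, each by a probe set that passed the test. The 6 other genes gave no probe set that passed in this fit, although PPM1D passed with 1 probe set per gene. Neither call held without the pair block, with a trended and robust variance model or with the GAPDH control difference as a covariate, as given below. Over both treatments, 210 of the 32768 kept probe sets passed, which is 0.641%, with 159 lower (0.485%) and 51 higher (0.156%) in SP cells. Of the 19 tested probe sets of the p53 targets, 2 passed, both lower. On the log2 scale ZMAT3 227221_at fell by 0.47 ± 0.07 (SE over 6 pairs, adjusted p = 0.0479) and TP53INP1 225912_at fell by 0.40 ± 0.06 (adjusted p = 0.0426). The median of the 19 differences was -0.061, beside 0.0060 over all kept probe sets, with 7 above 0 and 12 below. At an unadjusted p under 0.05, 6 of the 19 were found, beside 14.3% of all kept probe sets.

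ZMAT3 encodes a zinc-finger RNA-binding protein that p53 induces and that acts in growth suppression and RNA processing. Its brightest probe set, 225725_at, had log2 values of 7.47, 8.09 and 7.90 in anti-EpCAM SP cells, against 8.24, 8.54 and 8.79 in anti-EpCAM non-SP cells. In untreated cells it had 7.86, 7.33 and 8.17 in SP cells, against 8.06, 7.78 and 9.06 in non-SP cells. The SP value was the lower one in 6 of 6 pairs, and SP and non-SP did not overlap in anti-EpCAM cells but overlapped in untreated cells. The mean difference was -0.61 ± 0.10 (SE, n = 6 pairs; 95% interval -0.84 to -0.38), which is 1.52-fold lower in SP cells, and its adjusted p of 0.0501 lay just above the threshold.

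The ZMAT3 probe set that passed, 227221_at, had 7.60, 7.74 and 7.95 in anti-EpCAM SP cells, against 7.86, 8.40 and 8.59 in anti-EpCAM non-SP cells. In untreated cells it had 7.58, 7.52 and 8.11 in SP cells, against 7.81, 8.02 and 8.63 in non-SP cells. It too was lower in SP cells in 6 of 6 pairs, by 0.22 to 0.66, although the groups overlapped within each treatment. The mean fall was 1.38-fold (95% interval of the log2 difference -0.64 to -0.30).

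The other kept ZMAT3 probe sets also lay lower in SP cells on average but did not pass. For 228315_at the difference was -1.07 ± 0.21 (SE, n = 6 pairs, adjusted p = 0.0743), with values from -1.86 to 0.09 over the pairs and anti-EpCAM pair 1 as the exception. In untreated cells its values of 7.14, 6.99 and 6.36 in SP cells all lay below the lowest non-SP value of 7.75. For 219628_at the difference was -0.42 ± 0.10 (adjusted p = 0.125), with untreated pair 1 as the exception at 0.09. The dim 1555609_a_at was lower in SP cells in 2 pairs and higher in 4. The probe sets of ZMAT3 thus differed among themselves in size and in the pair that stood apart.

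TP53INP1 encodes a stress protein that acts in autophagy and p53-dependent cell death. Its brightest probe set, 225912_at, had 8.35, 9.23 and 8.96 in anti-EpCAM SP cells, against 8.70, 9.55 and 9.51 in anti-EpCAM non-SP cells. In untreated cells it had 8.47, 8.66 and 9.14 in SP cells, against 8.77, 8.998 and 9.69 in non-SP cells. The SD within a group was 0.35 to 0.48 and the groups overlapped, while the 6 pair differences, all below 0, ran from -0.56 to -0.29 with an SD of 0.12. The mean fall was 1.32-fold (95% interval of the log2 difference -0.54 to -0.26). The second kept probe set, 244721_at, differed by -0.04 ± 0.07 (SE, n = 6 pairs, adjusted p = 0.815), and the dim 235602_at was lower in 5 of 6 pairs.

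The difference between the GAPDH 3' and 5' control probe sets, a measure of RNA integrity, was unequal within anti-EpCAM pairs (SP minus non-SP of 0.54, 0.30 and -0.38) and smaller within untreated pairs (-0.11, 0.01 and 0.11); with it as a covariate the adjusted p was 0.0752 for ZMAT3 227221_at and 0.0663 for TP53INP1 225912_at, with the estimates unchanged. Neither probe set passed without the pair block (adjusted p = 1) or with a trended and robust variance model (adjusted p = 0.421), and in both of these limma fits 0 probe sets of the array passed (563 and 3817 at an unadjusted p under 0.05). Leaving out any of the 6 pairs ended the call of TP53INP1 225912_at (adjusted p of 0.0538 to 0.194), and ZMAT3 227221_at passed only without anti-EpCAM replicate 1 (0.0376, against 0.0998 to 0.214 for the other pairs).

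**Figure D1:**
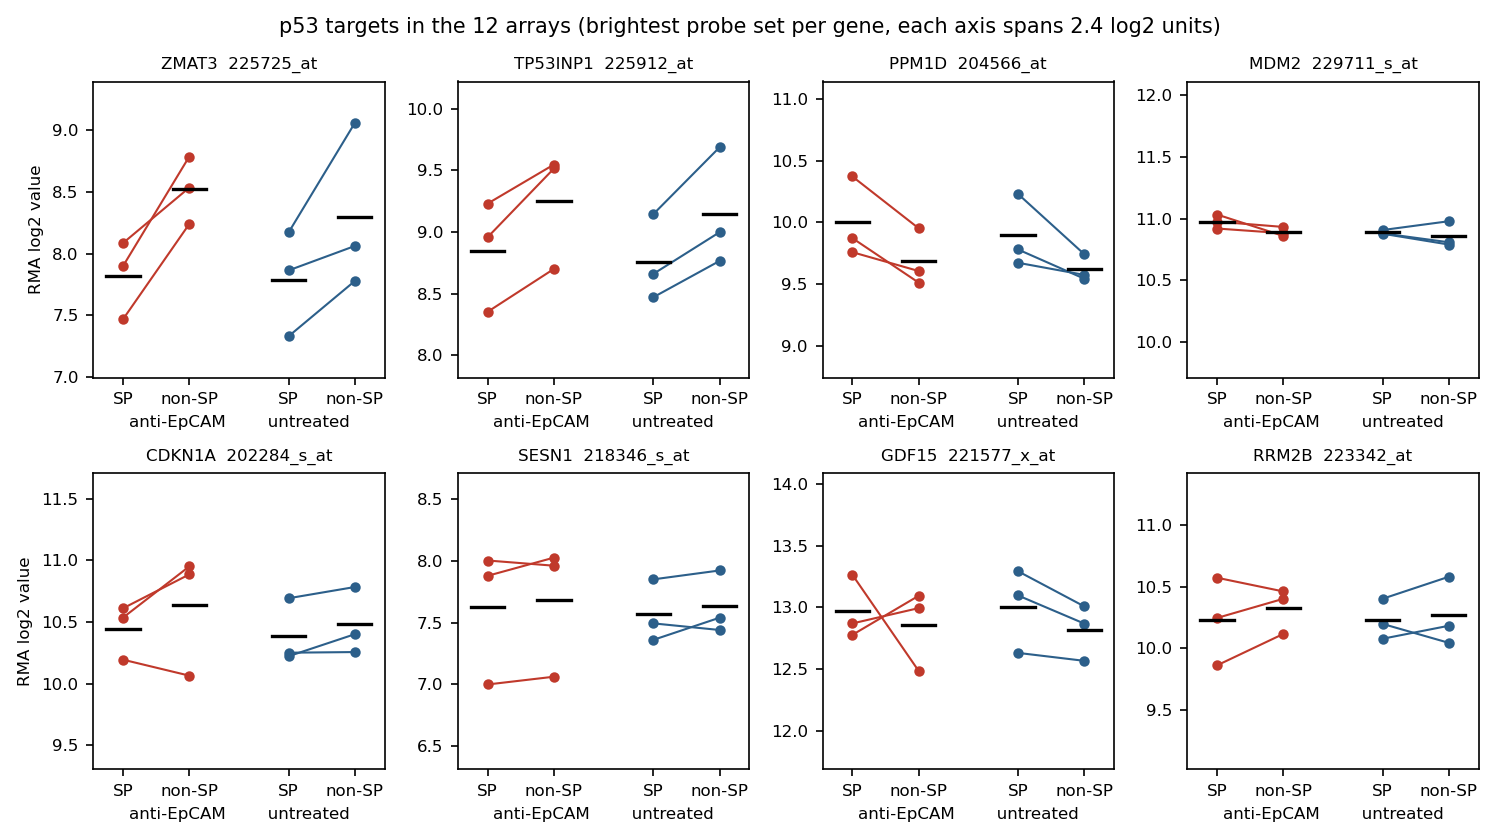
RMA log2 values of the brightest probe set of each of the 8 genes in the 12 arrays, with SP left of non-SP, lines joining the arrays of a pair, black bars marking group means, and anti-EpCAM in red left of untreated in blue. The SP point lies below its non-SP partner in 6 of 6 pairs for ZMAT3 and TP53INP1 and above it in 6 of 6 for PPM1D, while MDM2 stays between 10.79 and 11.03.

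PPM1D and MDM2 are the feedback inhibitors of p53. PPM1D encodes the phosphatase WIP1, which removes activating phosphates from p53 and its upstream kinases. Its brightest probe set, 204566_at, had 9.87, 10.37 and 9.76 in anti-EpCAM SP cells, against 9.51, 9.95 and 9.61 in anti-EpCAM non-SP cells. In untreated cells it had 9.78, 9.67 and 10.23 in SP cells, against 9.54, 9.57 and 9.74 in non-SP cells. It was higher in SP cells in 6 of 6 pairs, by 0.29 ± 0.07 (SE, n = 6 pairs), the opposite side from ZMAT3 and TP53INP1, but did not pass (adjusted p = 0.121), and SP and non-SP overlapped within each treatment. The second probe set, 230330_at, differed by 0.23 ± 0.11 (adjusted p = 0.400) and was higher in 5 of 6 pairs; without untreated replicate 3 the difference was 0.11.

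MDM2 encodes the ubiquitin ligase that marks p53 for degradation, and it is among the most direct readouts of p53 activity. Its brightest probe set, 229711_s_at, lay between 10.79 and 11.03 in all 12 arrays. It had 10.98, 11.03 and 10.92 in anti-EpCAM SP cells, against 10.93, 10.86 and 10.88 in anti-EpCAM non-SP cells. In untreated cells it had 10.88, 10.88 and 10.91 in SP cells, against 10.81, 10.79 and 10.98 in non-SP cells. The difference of 0.06 ± 0.05 (SE, n = 6 pairs, adjusted p = 0.670) had a 95% interval of -0.07 to 0.18, narrow beside the fall of ZMAT3. The 5 other kept MDM2 probe sets differed by -0.12 to 0.06 with adjusted p of 0.558 and above. Among the 4 dim ones, 205386_s_at was higher in SP cells in 6 of 6 pairs and 211832_s_at lower in 6 of 6, so dim MDM2 probe sets pointed both ways.

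CDKN1A encodes p21, the inhibitor of cyclin-dependent kinases through which p53 arrests the cell cycle. Its only probe set, 202284_s_at, had 10.20, 10.61 and 10.54 in anti-EpCAM SP cells, against 10.07, 10.89 and 10.95 in anti-EpCAM non-SP cells. In untreated cells it had 10.25, 10.22 and 10.69 in SP cells, against 10.26, 10.40 and 10.78 in non-SP cells. It was lower in SP cells in 5 of 6 pairs, with a difference of -0.14 ± 0.08 (SE, n = 6 pairs, adjusted p = 0.463). The 95% interval of -0.32 to 0.04 holds 0. The difference was -0.22 without anti-EpCAM replicate 1 and -0.08 without anti-EpCAM replicate 3, and it passed in neither case.

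SESN1, RRM2B and GDF15 act downstream of p53 in metabolism, DNA synthesis and signalling. SESN1 encodes a sestrin that restrains mTORC1; its probe set had group means of 7.57 to 7.68 and differed by -0.06 ± 0.06 (SE, n = 6 pairs, adjusted p = 0.670). RRM2B encodes the p53-induced small subunit of ribonucleotide reductase, which supplies deoxynucleotides for repair; its probe set ranged from 9.86 to 10.58 and differed by -0.07 ± 0.07 (adjusted p = 0.695). GDF15 encodes a secreted stress cytokine of the TGF-beta superfamily. Its brightest probe set, 221577_x_at, whose suffix marks probes that can match other transcripts, had 12.78, 12.87 and 13.27 in anti-EpCAM SP cells, against 13.09, 12.99 and 12.49 in anti-EpCAM non-SP cells, and 13.10, 12.63 and 13.29 in untreated SP cells, against 12.87, 12.57 and 13.01 in untreated non-SP cells. Its mean difference of 0.15 ± 0.13 (adjusted p = 0.650) rested on anti-EpCAM pair 3, at 0.78, and was -0.01 without that pair. The second kept GDF15 probe set, 229868_s_at, differed by 0.14 ± 0.06 (adjusted p = 0.388), and the dim 221576_at was higher in SP cells in 5 of 6 pairs.

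**Figure D2:**
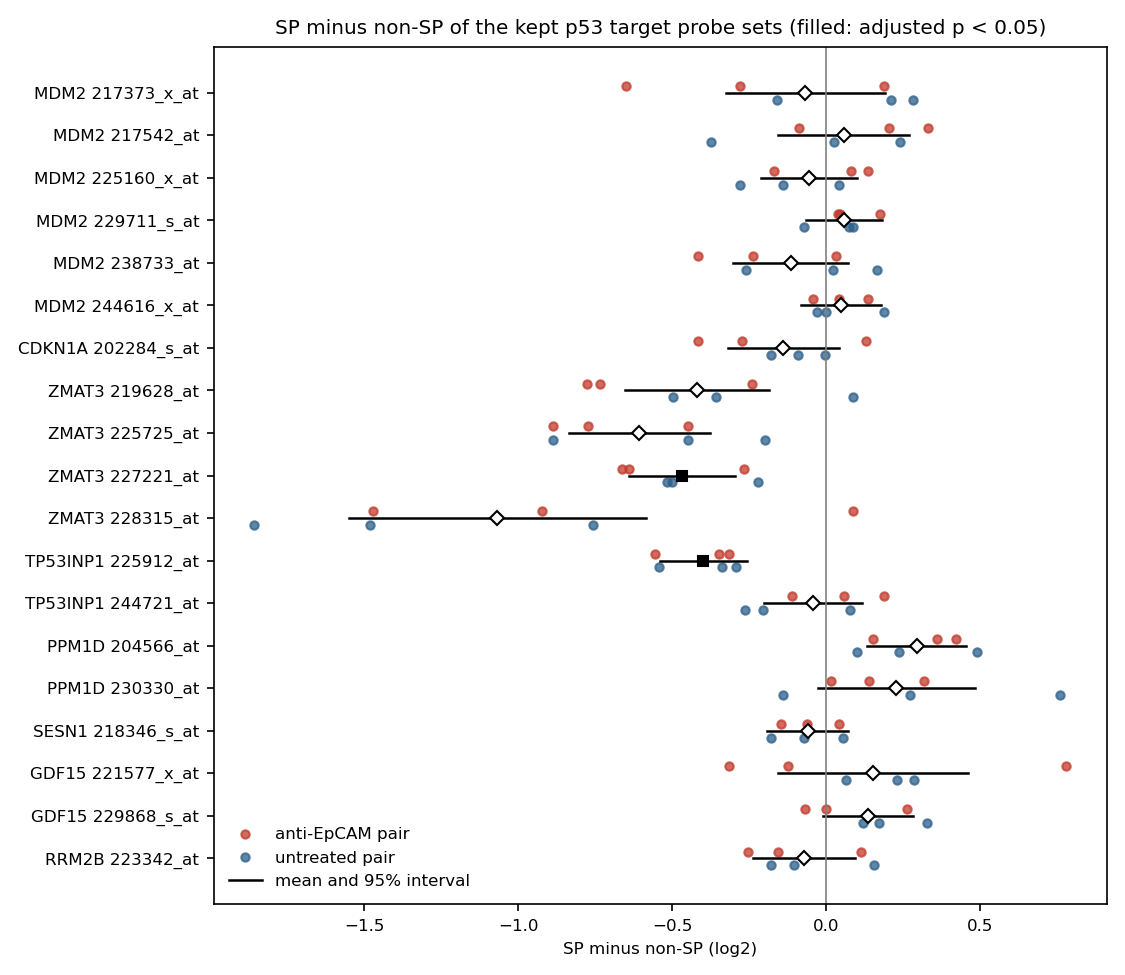
SP minus non-SP on the log2 scale for the 19 kept probe sets, with red points for anti-EpCAM pairs, blue points for untreated pairs, and a marker and line for the mean of the 6 pairs and its 95% interval. The 2 filled markers, ZMAT3 227221_at and TP53INP1 225912_at, passed the test, and the 4 kept ZMAT3 probe sets have the lowest means.

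Counted over pairs, 4 of the 19 kept probe sets had the same sign in all 6 pairs, which is 21.1%, beside 9.55% of all kept probe sets. They were ZMAT3 225725_at, ZMAT3 227221_at and TP53INP1 225912_at on the lower side and PPM1D 204566_at on the higher side; over all kept probe sets, 4.53% were lower and 5.01% higher in all 6 pairs. The ZMAT3 probe sets read the same gene and are not independent of each other. Set against the brightest probe sets of the 6 other genes, the differences of ZMAT3 225725_at and of TP53INP1 225912_at were the lower ones in 6 of 6 pairs against each, a comparison chosen after the values were seen. SP and non-SP did not overlap for 1 of the 19 probe sets in anti-EpCAM cells, ZMAT3 225725_at (1.44% of all kept probe sets), and for 1 in untreated cells, ZMAT3 228315_at (3.86%).

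With 1 probe set per gene, the brightest kept, 14649 genes were tested and 362 passed, which is 2.47% (1.45% lower and 1.02% higher). Of the 8 p53 targets, 3 then passed. ZMAT3 and TP53INP1 were lower, each with an adjusted p of 0.00999, and PPM1D was higher with an adjusted p of 0.0453. The estimates are those given above, and the SEs and the number of features tested differ.

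For the brightest probe set of each gene, the difference had the same sign in both treatments, with wider errors. Some other probe sets changed sign, such as MDM2 217373_x_at, at 0.11 in untreated and -0.25 in anti-EpCAM pairs. In anti-EpCAM cells ZMAT3 225725_at differed by -0.70 ± 0.14, TP53INP1 225912_at by -0.41 ± 0.09 and PPM1D 204566_at by 0.31 ± 0.10 (SE, n = 3 pairs each). In untreated cells the differences were -0.51 ± 0.14, -0.39 ± 0.09 and 0.27 ± 0.10; without untreated replicate 3 they were -0.32 for ZMAT3 225725_at and 0.17 for PPM1D 204566_at. In neither treatment did any of the 32768 probe sets pass in limma (0% called). At an unadjusted p under 0.05, 6 of the 19 were found in anti-EpCAM cells, beside 8.34% of all, and 5 of the 19 in untreated cells, beside 8.46% of all. In both treatments they came from ZMAT3, TP53INP1 and PPM1D alone, most of them from ZMAT3. The smallest adjusted p among the 19 was 0.244 in anti-EpCAM cells and 0.309 in untreated cells. With 1 probe set per gene, 36 genes passed in anti-EpCAM cells (0.246%) and 14 in untreated cells (0.0956%). The difference between the treatments in SP minus non-SP was tested directly: no probe set passed, 0 of the 19 reached an unadjusted p under 0.05 (1.59% of all kept probe sets), and the estimates ran from -0.36 to 0.60.

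Treatment with the EpCAM antibody gave no called change in any p53 target. Because arrays of different pairs look normalised apart, with array medians of 5.58 to 6.24, the antibody was tested on values quantile-normalised over the 12 arrays, 3 arrays against 3 in each fraction. Of the 32768 probe sets, 0 passed in SP cells and 0 in non-SP cells in limma (434 and 693 at an unadjusted p under 0.05, which is 1.32% and 2.11%). Of the 19 probe sets of the p53 targets, 0 reached an unadjusted p under 0.05 in either fraction, and 0 had groups that did not overlap (4.28% of all kept probe sets in SP cells and 5.55% in non-SP cells). The estimates, anti-EpCAM minus untreated, ran from -0.57 to 0.29 in SP cells and from -1.09 to 0.36 in non-SP cells, with a median of -0.006 and -0.005. Every 95% interval held 0. The intervals were wide, and a p that misses the threshold with 3 arrays a group does not show that the levels were equal.

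The lowest estimate in both fractions was that of ZMAT3 228315_at. After quantile normalisation it had 7.59, 6.28 and 5.09 in anti-EpCAM SP cells, against 7.35, 7.14 and 6.18 in untreated SP cells. In non-SP cells it had 7.53, 7.79 and 6.06 with anti-EpCAM, against 9.15, 7.87 and 7.63 untreated. The groups overlapped in both fractions, and the 95% interval was -1.98 to 0.85 in SP cells and -2.36 to 0.18 in non-SP cells. Taken as the mean of both fractions per pair, 0 of 32768 probe sets passed (561 at an unadjusted p under 0.05, which is 1.71%) and the 19 estimates ran from -0.83 to 0.21.

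**Figure D3:**
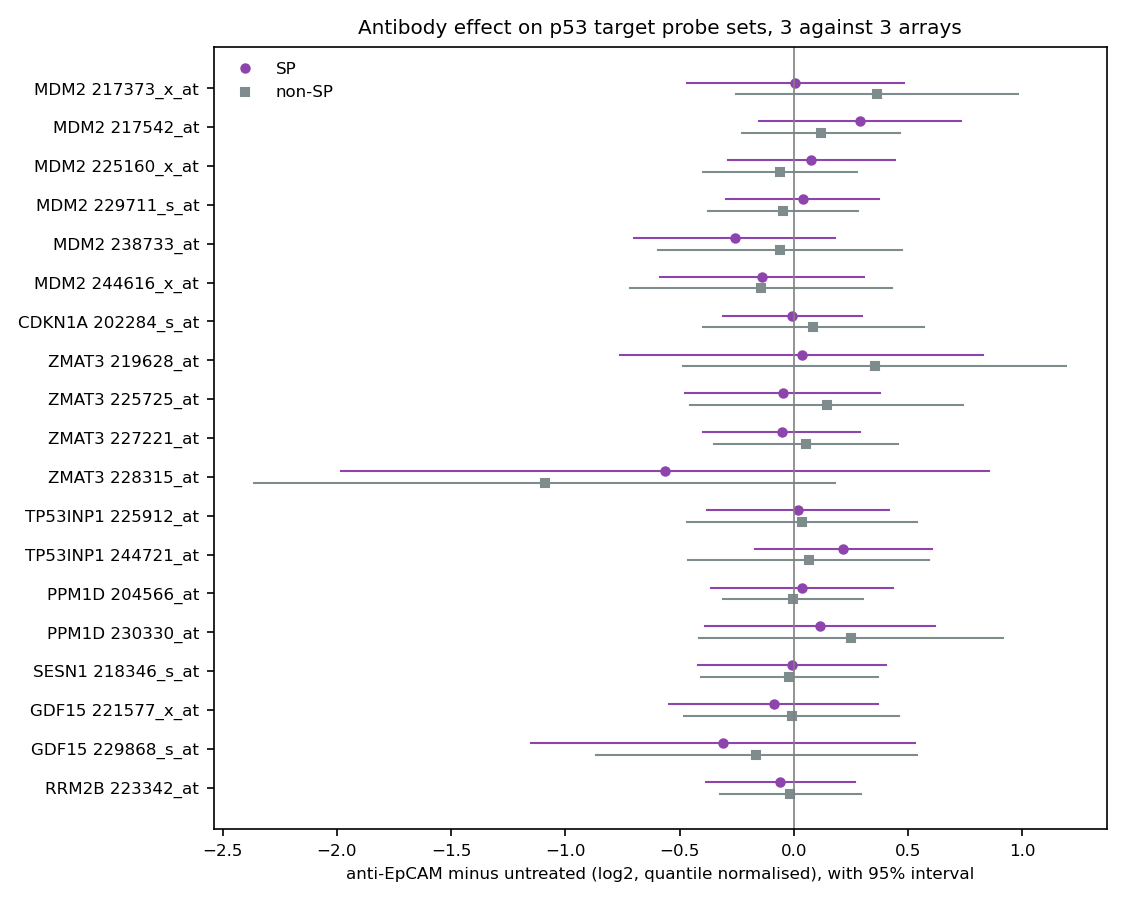
Anti-EpCAM minus untreated on the log2 scale, after quantile normalisation, for the 19 kept probe sets in SP cells (purple circles) and non-SP cells (grey squares), 3 arrays against 3, with 95% intervals. All 38 intervals hold 0, and the widest belong to ZMAT3 228315_at.

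The wider pathway was read from lists of other p53 targets and of p53 regulators. Both lists were written with earlier results of these arrays known, among them the fall of TNFRSF10D. Its call below is therefore no separate support. Of 36 other targets, 34 had a probe set and 33 had 1 that was kept (62 probe sets). By the brightest probe set, 10 of the 33 lay above 0 and 23 below in SP minus non-SP, with a median of -0.049 beside 0.0056 over all 14649 genes. Of the 62 probe sets, 1 passed lower and 0 higher, beside 0.485% and 0.156% of all kept probe sets. It was TNFRSF10D 227345_at, which encodes a decoy receptor for the death ligand TRAIL. It had 7.86, 7.89 and 8.17 in anti-EpCAM SP cells, against 8.49, 8.59 and 9.18 in anti-EpCAM non-SP cells, and 8.07, 7.59 and 8.50 in untreated SP cells, against 8.61, 8.30 and 9.33 in untreated non-SP cells. It fell by 0.74 ± 0.07 (SE, n = 6 pairs, adjusted p = 0.0174), in 6 of 6 pairs, and in anti-EpCAM cells the fractions did not overlap. Leaving out any pair other than anti-EpCAM replicate 1 ended this call (adjusted p of 0.0522 to 0.0869).

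With 1 probe set per gene, TNFRSF10D (adjusted p = 0.00137) and SPATA18 (adjusted p = 0.0149), which acts in mitochondrial quality control, passed among the 33. Both were lower, beside 1.45% of all genes called lower. SPATA18 229331_at differed by -0.56 ± 0.10 and was lower in SP cells in 6 of 6 pairs, with an adjusted p of 0.0624 over all probe sets. Of the 14 regulators, 12 had a kept probe set (37 probe sets), and 0 passed, beside 0.641% of all kept probe sets. By gene, 9 lay above 0 and 3 below, with a median of 0.052 beside 0.0056 over all genes. MDM4, the partner of MDM2 that blocks p53 transactivation, differed by 0.05 ± 0.06 (236814_at, adjusted p = 0.709). CDKN2A, whose ARF product inhibits MDM2, had 1 kept probe set, 209644_x_at, at 5.66 to 6.89, with a difference of 0.02 ± 0.08 (adjusted p = 0.943). Its suffix marks probes that can match other transcripts. The other CDKN2A probe sets, 207039_at and 211156_at, lay below the filter with means of 4.11 and 4.78. Whether the signal of 209644_x_at comes from CDKN2A was not tested. In the antibody contrasts 0 of the probe sets of either list passed.

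**Figure D4:**
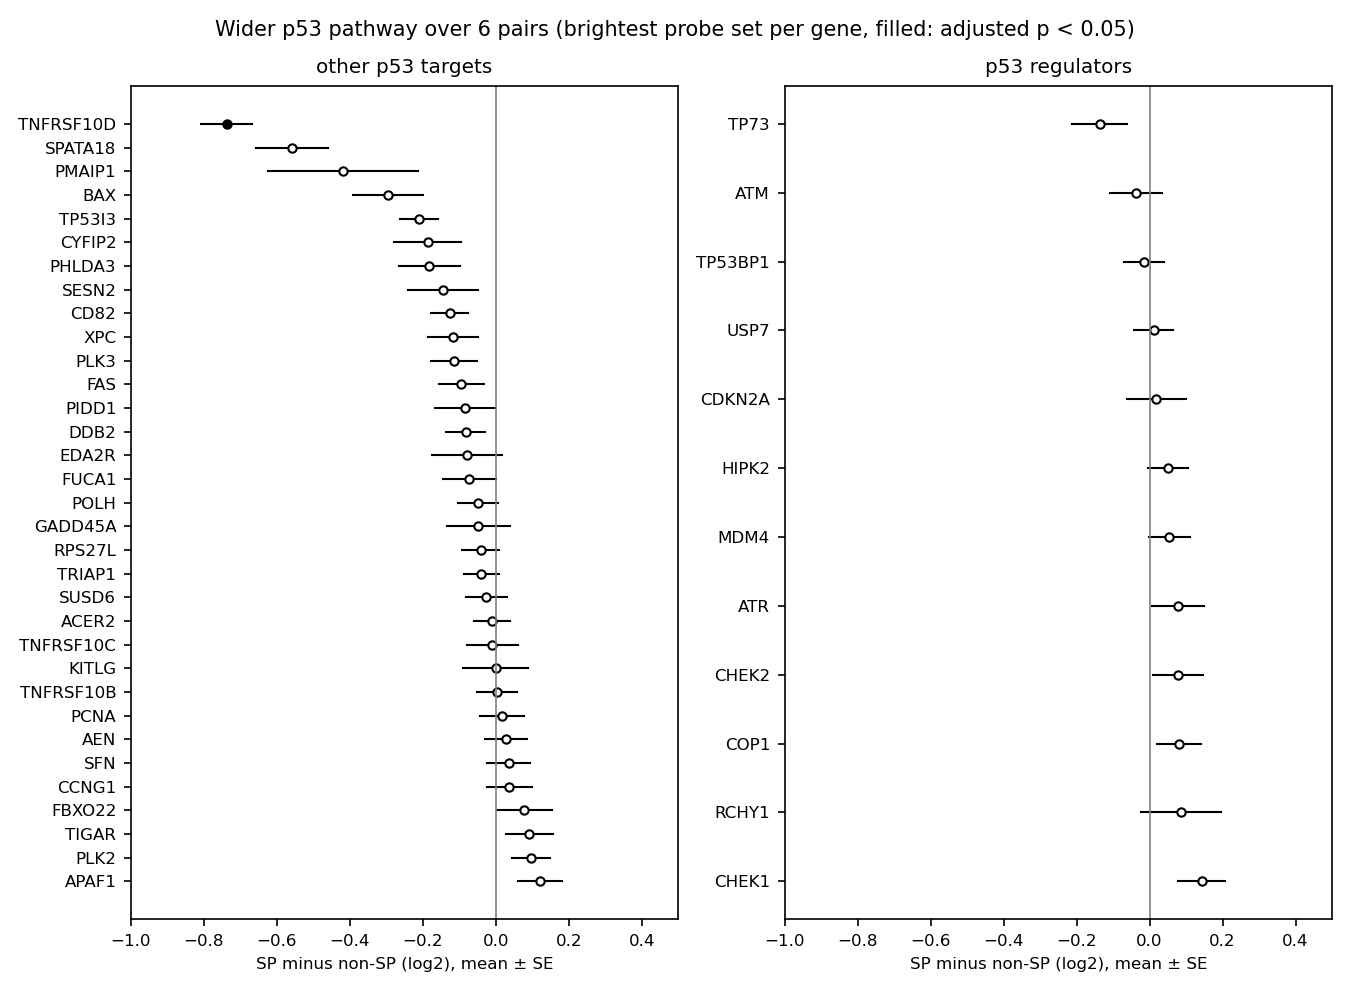
SP minus non-SP on the log2 scale over the 6 pairs, mean ± SE, for the brightest probe set of 33 other p53 targets (left) and 12 p53 regulators (right). TNFRSF10D, the only filled point, lies farthest below 0, and its fall was known when the list was written. The regulators lie between -0.14 and 0.14.

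The genes whose levels followed TP53INP1 225912_at most closely over the 12 arrays, among 14648 others by their brightest probe set after quantile normalisation, were GASK1B (Pearson r = 0.965), IGFBP3 (r = 0.953) and PRKAB2 (r = 0.947). The arrays of a pair share their processing, so these values describe the arrays and carry no test. GASK1B differed by -0.55 ± 0.10, IGFBP3, which encodes an insulin-like growth factor binding protein, by -0.28 ± 0.06, and PRKAB2, a regulatory subunit of AMP-activated protein kinase, by -0.28 ± 0.05 between SP and non-SP (SE, n = 6 pairs). Each was lower in 6 of 6 pairs. These values come from the arrays on which the genes were chosen for following a probe set that is lower in SP cells, so they describe the genes and are no separate support for the difference.

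The promoters of the p53 targets can be set beside these values. RefSeq promoters (GRCh38.p14) were searched over the 250 bases before the start for the p53 consensus decamer, a sequence that is its own reverse complement and so reads alike on both strands, and for the 20-base p53 response element, which is 2 adjoining decamers, with up to 2 mismatches outside the core C and G. The decamer occurred in 5.57% and the 20-base element in 0.242% of 35116 promoters, and the searches can overlap. Of the 9 genes, 7 are reported here, with 14 promoters. Matches for TP53INP1 and RRM2B are not reported here. The 20-base element was found in the 2 overlapping promoters of the downstream MDM2 starts, and the decamer in 1 of 3 SESN1 promoters and 1 of 2 FDXR promoters. Neither occurred in the 2 ZMAT3 promoters or in those of PPM1D, CDKN1A and GDF15, which says only that these letters are not in this window. The sequences below, from 5′ to 3′ on the strand of the gene, show a gene with the element and no called difference (MDM2), a gene with the decamer and no called difference (SESN1) and a gene with neither and a called fall (ZMAT3), with matched bases in capitals.
MDM2, chr12:68808767-68809016, plus strand, element 94 to 75 bases before the start: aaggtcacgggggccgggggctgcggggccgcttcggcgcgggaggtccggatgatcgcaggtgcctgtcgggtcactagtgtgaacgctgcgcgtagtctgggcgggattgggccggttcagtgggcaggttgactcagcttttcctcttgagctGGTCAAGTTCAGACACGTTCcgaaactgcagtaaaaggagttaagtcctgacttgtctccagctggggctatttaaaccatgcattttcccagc
SESN1, chr6:109008989-109009238, minus strand, decamer 49 to 40 bases before the start: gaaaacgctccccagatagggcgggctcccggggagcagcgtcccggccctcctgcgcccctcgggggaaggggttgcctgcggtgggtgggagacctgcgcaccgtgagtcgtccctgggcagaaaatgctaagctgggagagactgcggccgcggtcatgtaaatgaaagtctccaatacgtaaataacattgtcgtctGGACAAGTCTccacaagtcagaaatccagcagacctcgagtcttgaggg
ZMAT3, chr3:179071810-179072059, minus strand, no match: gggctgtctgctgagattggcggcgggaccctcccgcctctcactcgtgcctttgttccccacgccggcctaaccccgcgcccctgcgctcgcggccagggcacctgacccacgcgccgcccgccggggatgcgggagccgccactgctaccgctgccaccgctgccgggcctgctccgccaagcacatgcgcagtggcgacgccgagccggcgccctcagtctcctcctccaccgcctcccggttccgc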

How the data were processed

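RNA was measured on 12 Affymetrix expression arrays, 3 per group. The deposited values are log2 expression values made by the authors with RMA, per the submitters' processing notes; the RMA version and which arrays were processed together are not given in the sources used here. Values ranged from 2.43 to 14.95. The number of arrays limits the precision. Groups came from the sample titles. Symbols came from a probe table: 41091 of 54613 probe sets had 1 symbol, 1801 had several and 11721 had no entry. Control probe sets (62) were left out.

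Probe sets with a mean above the 40th percentile were kept. SP minus non-SP was fitted in limma 3.58.1 (R 4.3.3) on 6 within-pair differences, both treatments sharing 1 estimate of the spread; the antibody was fitted on quantile-normalised values. Tests were moderated, two-sided and without trend, with Benjamini-Hochberg adjustment. The pair block is part of the main fit because the choice of members names these pairs. Pairs were checked by their deviations from group means (r of 0.521 to 0.864). Between treated and untreated arrays of equal number r was 0.63, -0.36 and 0.57 for SP and 0.66, -0.20 and 0.48 for non-SP, so numbers were not taken as pairs across the antibody.

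The members and the lists of other targets, regulators and markers were chosen with earlier results of these data known, among them the fall of TNFRSF10D, so none is independent support. Named were all members, listed pathway genes that passed, the regulators MDM4 and CDKN2A, and the 3 genes most like a member whose brightest probe set passed; SPATA18 passed only with 1 probe set per gene. Alternatives covered the block, normalisation, filter, features tested, variance model, RNA integrity and replicates. The fits were also run on simulated data, in which the spreads were shuffled across probe sets and the pairs were independent. That run therefore does not cover a spread that follows the level, or dependence between pairs.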

Additional observations from a re-analysis of the deposited data

How the results depend on the processing

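Of the 19 probe sets of the p53 targets, 2 passed in SP minus non-SP over both treatments. This count was 0 without the replicate block, 0 with a trended and robust variance model, 0 with the GAPDH control difference as a covariate and 0 without anti-EpCAM replicates 1 and 3, and it ranged from 0 to 2 when single pairs were left out. It stayed at 2 with quantile normalisation, and it was 3 with no filter, 3 with the stricter filter at the 60th percentile and 3 of 8 with 1 probe set per gene. Over all probe sets, the 210 calls became 0 without the block, 0 with the trended and robust model, 125 with the GAPDH covariate, 0 without anti-EpCAM replicates 1 and 3, 362 with 1 probe set per gene, and 0 to 322 when single pairs were left out (322 without anti-EpCAM replicate 1, and 22 or fewer without any other pair). With the trended and robust model the adjusted p of ZMAT3 227221_at, TP53INP1 225912_at and TNFRSF10D was 0.421. The cause was not tested.

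ZMAT3 225725_at passed with no filter (adjusted p = 0.0444) and with the stricter filter (0.0469), and ZMAT3 228315_at passed without anti-EpCAM replicate 1 (0.0376). Other targets called numbered 1 and ranged from 0 to 1 when single pairs were left out; the number was 0 without the block, with the trended and robust model and without anti-EpCAM replicates 1 and 3. Within anti-EpCAM pairs, 1 probe set of all passed with no filter.

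Values that changed sign, none of them called, were, with their range over single pairs left out, MDM2 217373_x_at (-0.177 to 0.0324, above 0 without anti-EpCAM replicate 1), GDF15 221577_x_at (-0.0140 to 0.260, below 0 without anti-EpCAM replicate 3), MDM2 217542_at (-0.0128 to 0.140, below 0 without untreated replicate 3) and CDKN2A 209644_x_at (-0.0588 to 0.0639, below 0 without anti-EpCAM replicate 2 and without untreated replicate 1), and, without anti-EpCAM replicates 1 and 3, MDM2 238733_at (0.0028), RRM2B (0.0338), MDM4 236814_at (-0.0014) and the between-treatment difference of ZMAT3 228315_at (-0.11). For ZMAT3 228315_at the antibody estimate in SP cells ranged from -1.199 to 0.0486, above 0 without anti-EpCAM replicate 3. Over the 19 probe sets, all 7 contrasts and all settings, 154 of 1693 estimates changed sign, 0 of them called, 107 of these in the 3 antibody contrasts and 25 in the difference between treatments; of those 4 contrasts the text prints single estimates for ZMAT3 228315_at alone and ranges for the rest, a choice made after this count was seen. The antibody contrasts gave 0 calls under every setting run, with the replicate block on number included, with deposited values (median of all probe sets 0.08 to 0.10) and with median centring. Whether the 6 pairs are independent was not tested.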
